A study of Mus musculus with 3 samples.

Results

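Circadian clock genes were read out in single nuclei of mouse brown adipose tissue (BAT). The list held 10 genes (Per1, Per2, Per3, Cry1, Dbp, Nr1d1, Nr1d2, Arntl, Npas2 and Bhlhe40), chosen by name as members of the clock loop and its direct outputs. The choice was made with earlier results of these data known. Of the 10 genes, 9 were measured among the 25154 genes listed in the tables, and Per3 was not analysed here. The study made 1 library each of untreated, sham-operated and denervated BAT from adult male wild-type C57Bl6 mice. Interscapular BAT of several mice was pooled and digested, and nuclei of its floating fraction were captured on the BD Rhapsody platform. Denervation is described in the methods as unilateral cutting of the intercostal nerves to the left lobe, with the nerves of the right lobe kept as a control in the same animal. For the denervated library a supplementary legend names tamoxifen given to the mice and sampling some days after the operation. Whether the mice of the other libraries had tamoxifen is not given. Elsewhere the study uses the word sham both for the opposite lobe, in reporter mice given tamoxifen, and for a group set beside both lobes. Which of these the sham library came from, and whether its mice were those of the denervated library, is not given in the sources used here. The mice lived on a light/dark cycle, and the time of day at which each pool was taken is likewise not given. A library is thus 1 time point of unknown clock time, and collection time, operation, tamoxifen, pool and library cannot be told apart.

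The clock is a feedback loop of transcription that runs in nearly every cell. BMAL1, the product of Arntl, pairs with CLOCK or its paralogue NPAS2 and switches on the Per and Cry genes, Nr1d1, Nr1d2, Dbp and Bhlhe40 through E-boxes. PER and CRY proteins then block this pair, while the nuclear receptors REV-ERBα and REV-ERBβ, made from Nr1d1 and Nr1d2, repress Arntl and Npas2 through ROR elements, so that both arms peak at opposite times of day. In BAT the loop is known for daily rhythms of heat production, and REV-ERBα is known as a repressor of Ucp1.

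Promoters of 4 members are shown first, because the loop acts on them: Npas2 and Cry1, which stood furthest apart between libraries in adipocyte-like nuclei, and Arntl and Per1 from the same arms. They are RefSeq windows on GRCm38.p6, from 250 bases before to 50 bases after an annotated start, written in the direction of transcription. Capitals mark matches, on either strand, to an E-box (CACGTG), a ROR half-site (AGGTCA), a D-box (TTATGNAA) or a CRE half-site (TGACG), of which no pair overlaps here. The windows of Npas2 (chr1:39194022-39194321, plus strand), Cry1 (chr10:85185005-85185304, minus strand), Per1 (chr11:69098699-69098998, plus strand) and Arntl (chr7:113207261-113207560, plus strand) read as follows, with another listed start of both Per1 and Arntl not printed:
Npas2: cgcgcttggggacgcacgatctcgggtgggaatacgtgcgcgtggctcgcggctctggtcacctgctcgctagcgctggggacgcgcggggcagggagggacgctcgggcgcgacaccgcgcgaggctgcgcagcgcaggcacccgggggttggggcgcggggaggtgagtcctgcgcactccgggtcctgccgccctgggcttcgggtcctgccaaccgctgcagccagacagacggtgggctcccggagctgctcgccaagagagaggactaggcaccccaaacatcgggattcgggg
Cry1: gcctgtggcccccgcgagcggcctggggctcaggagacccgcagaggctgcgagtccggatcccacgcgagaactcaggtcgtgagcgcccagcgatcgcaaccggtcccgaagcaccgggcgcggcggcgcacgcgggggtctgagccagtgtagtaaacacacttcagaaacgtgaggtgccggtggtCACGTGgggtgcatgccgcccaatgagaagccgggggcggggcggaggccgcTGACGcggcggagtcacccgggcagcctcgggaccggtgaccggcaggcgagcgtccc
Per1: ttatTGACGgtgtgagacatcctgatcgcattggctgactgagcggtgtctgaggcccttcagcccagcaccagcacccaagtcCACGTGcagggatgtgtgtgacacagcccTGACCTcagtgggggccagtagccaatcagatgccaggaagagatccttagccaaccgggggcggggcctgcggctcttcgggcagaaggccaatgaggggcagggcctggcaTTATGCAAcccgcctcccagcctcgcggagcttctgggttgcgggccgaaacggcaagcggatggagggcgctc
Arntl: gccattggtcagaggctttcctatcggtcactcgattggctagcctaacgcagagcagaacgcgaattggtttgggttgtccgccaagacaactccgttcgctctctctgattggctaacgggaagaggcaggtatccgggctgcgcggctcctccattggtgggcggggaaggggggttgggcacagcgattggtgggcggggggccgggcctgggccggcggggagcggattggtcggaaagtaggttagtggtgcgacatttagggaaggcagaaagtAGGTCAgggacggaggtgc
The Cry1 window holds an E-box that begins 60 bases before the start. The Per1 window holds 4 matches, with its E-box 166 bases, a ROR half-site 137 bases and its D-box 24 bases before the start. The Arntl window has a ROR half-site 32 bases after the start, which the window of its other listed start (chr7:113207215-113207514, with no match) does not reach, and the Npas2 window matched none of the 4 patterns. Among members not printed, the Dbp and Nr1d1 windows held no match and the Nr1d2 window held a ROR half-site alone. Of 32851 promoter windows, 7.15% hold the E-box letters, 16.3% the ROR half-site, 3.38% the D-box and 20.8% the CRE half-site. A match describes letters and is not a measured binding site.

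After filtering, 10452 untreated, 11841 sham and 9559 denervated nuclei remained. The libraries held between 9420030 and 14971579 UMIs before filtering. Nuclei were grouped by marker genes into adipocyte-like nuclei (4676, 4318 and 5825 in the untreated, sham and denervated library), endothelial-like nuclei (5004, 5432 and 2535) and mural-like nuclei, which join pericyte and smooth muscle clusters (643, 1829 and 818). The 3 adipocyte-like groups held 8507362, 5960049 and 5779879 UMIs, and the endothelial-like groups 3520553, 3326126 and 1285197. Median UMIs per nucleus were 1810, 1338 and 882 in adipocyte-like and 662, 510 and 391 in endothelial-like nuclei. A UMI marks 1 captured RNA molecule, and levels are given as CPM, the UMIs of a gene scaled to 1e6 UMIs of the group, with exact 95% Poisson intervals. The summed CPM of the 10 brown adipocyte markers lay between 9126 and 10232 in adipocyte-like and between 1294 and 3843 in endothelial-like nuclei. That of the 12 endothelial markers lay between 10549 and 15784 in endothelial-like and between 407 and 451 in adipocyte-like nuclei. Ucp1, which no marker list used, had 340.3 CPM in untreated, 347 CPM in sham and 277 CPM in denervated adipocyte-like nuclei. Every interval covers counting error only, no difference has a replicate check, and no test or p-value is given. Between 251 and 278 barcode sequences occurred in each pair of libraries.

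Per2 encodes a repressor of the loop and lies on chromosome 1 of GRCm38 from 91415982 to 91459324. In adipocyte-like nuclei Per2 had 155.9 CPM (147.6 to 164.5) in the untreated, 75.8 CPM (69.0 to 83.2) in the sham and 115.1 CPM (106.5 to 124.1) in the denervated library. In endothelial-like nuclei it had 82.7 CPM (73.4 to 92.7), 42.7 CPM (36.0 to 50.3) and 71.6 CPM (57.7 to 87.8). The sham library was thus the lowest in both types, and the 3 intervals were separate in adipocyte-like nuclei. The log2 ratio of sham over untreated was -1.04 (-1.20 to -0.88) in adipocyte-like and -0.95 (-1.25 to -0.66) in endothelial-like nuclei, with a difference between types of -0.09 (-0.42 to 0.25). Mural-like nuclei had 154 CPM in the untreated, 91.2 CPM in the sham and 174 CPM in the denervated library, with the sham library again the lowest and the other intervals overlapping.

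Cry1, on chromosome 10 from 85131700 to 85185064, encodes the cryptochrome that binds PER proteins and holds the activators back. Adipocyte-like nuclei had 69.5 CPM (64.0 to 75.3) in the untreated, 20.5 CPM (17.0 to 24.4) in the sham and 82.4 CPM (75.1 to 90.1) in the denervated library. Endothelial-like nuclei had 65.6 CPM (57.4 to 74.6), 35.5 CPM (29.4 to 42.5) and 70.8 CPM (57.0 to 86.9). The sham library was again the lowest in both types, by a log2 ratio to untreated of -1.76 (-2.06 to -1.48) in adipocyte-like and -0.89 (-1.22 to -0.56) in endothelial-like nuclei. The difference was larger in adipocyte-like nuclei by 0.88 on the log2 scale, since adipocyte minus endothelial was -0.88 (-1.31 to -0.44). Mural-like levels were 49.0, 38.9 and 102 CPM, of which the untreated and sham intervals overlapped.

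Per1, on chromosome 11 from 69095217 to 69109960, is the Period gene that also answers acutely to cAMP and glucocorticoids. It had 21.3 CPM (18.3 to 24.6) in untreated, 22.8 CPM (19.1 to 27.0) in sham and 38.6 CPM (33.7 to 44.0) in denervated adipocyte-like nuclei. The endothelial-like levels were 22.7 CPM (18.0 to 28.3), 18.3 CPM (14.0 to 23.6) and 39.7 CPM (29.5 to 52.2). Here the denervated library stood apart and the others overlapped. Denervated over untreated gave a log2 ratio of 0.86 (0.57 to 1.15) in adipocyte-like, 0.80 (0.27 to 1.33) in endothelial-like and 1.15 (0.08 to 2.27) in mural-like nuclei. The first of these values moved to 0.54 among nuclei with at least 800 UMIs.

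Npas2, on chromosome 1 from 39193731 to 39363236, encodes the paralogue of CLOCK. Its levels in adipocyte-like nuclei were 22.9 CPM (19.8 to 26.4) in the untreated, 113 CPM (105 to 122) in the sham and 40.1 CPM (35.1 to 45.7) in the denervated library. In endothelial-like nuclei they were 15.3 CPM (11.5 to 20.01), 60.7 CPM (52.6 to 69.7) and 22.6 CPM (15.1 to 32.4). The sham library was the highest in both types, at 4.93-fold and 3.96-fold the untreated level. As log2 ratios these were 2.30 (2.07 to 2.54) and 1.99 (1.55 to 2.45), and their difference of 0.32 (-0.20 to 0.82) lay within counting error. Of these types and the mural-like nuclei, the latter had the highest Npas2 in each library, with 250.4 CPM (210.4 to 296), 389 CPM (357 to 423) and 212 CPM (169 to 262). The mural-like level was 10.9-fold the adipocyte-like level in the untreated, 3.44-fold in the sham and 5.27-fold in the denervated library. A small fibroblast-like group of 51 sham nuclei had 594 CPM (367 to 907), from 21 UMIs.

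Arntl, on chromosome 7 from 113207465 to 113314126, encodes BMAL1, without which the loop does not turn. Adipocyte-like nuclei had 168 CPM (159 to 177) in the untreated, 149 CPM (139 to 159) in the sham and 203 CPM (191 to 215) in the denervated library. Endothelial-like nuclei had 109 CPM (98.7 to 121), 132 CPM (120.2 to 145) and 128 CPM (109.5 to 149.5). The range over libraries was narrow beside that of Npas2, its partner in the same arm. Sham over untreated went in opposite directions, with log2 ratios of -0.18 (-0.30 to -0.05) and 0.27 (0.07 to 0.48).

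Nr1d1, on chromosome 11 from 98767932 to 98775333, encodes REV-ERBα. Its adipocyte-like levels were 99.1 CPM (92.5 to 106) in the untreated, 228 CPM (216 to 240.3) in the sham and 63.5 CPM (57.2 to 70.3) in the denervated library, with separate intervals. Its endothelial-like levels were 21.0 CPM (16.5 to 26.4), 35.8 CPM (29.6 to 42.8) and 19.5 CPM (12.6 to 28.7). The sham library was the highest in both types, with log2 ratios to untreated of 1.20 (1.08 to 1.33) and 0.77 (0.34 to 1.21). The former was 0.59 when only clusters with a brown adipocyte score above the white one by at least 1 log2 unit were kept. Mural-like levels were 27.2, 26.2 and 19.9 CPM, with overlapping intervals. Npas2 and Nr1d1, which belong to opposite arms, were therefore both higher in the sham library. Nr1d1 overlaps Thra on the other strand by 1075 bases, and no source here states whether counting used the strand. Thra, a thyroid hormone receptor gene, had 254 CPM in untreated, 413 CPM in sham and 271 CPM in denervated adipocyte-like nuclei, a smaller log2 ratio of sham over untreated (0.70, from 0.62 to 0.78) than that of Nr1d1. Reads from the overlap cannot be told apart.

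Nr1d2, on chromosome 14 from 18204054 to 18239127, encodes the paralogous REV-ERBβ. It had 66.9 CPM (61.5 to 72.6) in untreated, 66.4 CPM (60.1 to 73.3) in sham and 55.0 CPM (49.1 to 61.4) in denervated adipocyte-like nuclei. In endothelial-like nuclei the values were 15.9 CPM (12.0 to 20.7), 17.4 CPM (13.2 to 22.5) and 29.6 CPM (20.9 to 40.6). The untreated and sham libraries overlapped in both types. Nr1d2 thus did not share the higher sham level of Nr1d1.

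Dbp, on chromosome 7 from 45705088 to 45710203, is the PAR bZIP output gene with one of the steepest rhythms in many tissues. Only 49, 31 and 24 UMIs were counted in untreated, sham and denervated adipocyte-like nuclei, or 5.76 CPM (4.26 to 7.61), 5.20 CPM (3.53 to 7.38) and 4.15 CPM (2.66 to 6.18). Endothelial-like nuclei held 10, 11 and 4 UMIs. All 3 libraries overlapped in these 2 types, and the interval of sham over untreated in adipocyte-like nuclei ran from -0.85 to 0.53 on the log2 scale. In mural-like nuclei of the sham library Dbp had 0 UMIs, which allows up to 2.12 CPM by a limit of 3 counts and 2.61 CPM by the exact interval. The untreated library had 6 UMIs there, or 10.9 CPM (3.996 to 23.7), above that bound, and the denervated library had 1 UMI. Dbp had too few UMIs to count as tested in this type. Dbp also overlaps Sphk2 on the other strand by 737 bases, and Sphk2 had 26.0, 27.3 and 19.4 CPM in the same adipocyte-like nuclei.

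Bhlhe40, on chromosome 6 from 108660629 to 108666925, encodes DEC1, a repressor that competes for E-boxes. In adipocyte-like nuclei it had 321 CPM (309 to 333) in the untreated, 123 CPM (115 to 133) in the sham and 212 CPM (201 to 225) in the denervated library. In endothelial-like nuclei it had 42.0 CPM (35.5 to 49.4), 12.6 CPM (9.10 to 17.1) and 71.6 CPM (57.7 to 87.8). The sham library was the lowest in both types, with log2 ratios to untreated of -1.38 (-1.50 to -1.26) and -1.74 (-2.27 to -1.23). The denervated library was below the untreated one in adipocyte-like nuclei and above it in endothelial-like nuclei. These endothelial-like values lay at the level of stray adipocyte RNA, as described further on. Bhlhe40 overlaps the antisense gene 0610040F04Rik by 306 bases, which had 9.76, 16.6 and 7.96 CPM in untreated, sham and denervated adipocyte-like nuclei.

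**Figure D1:**
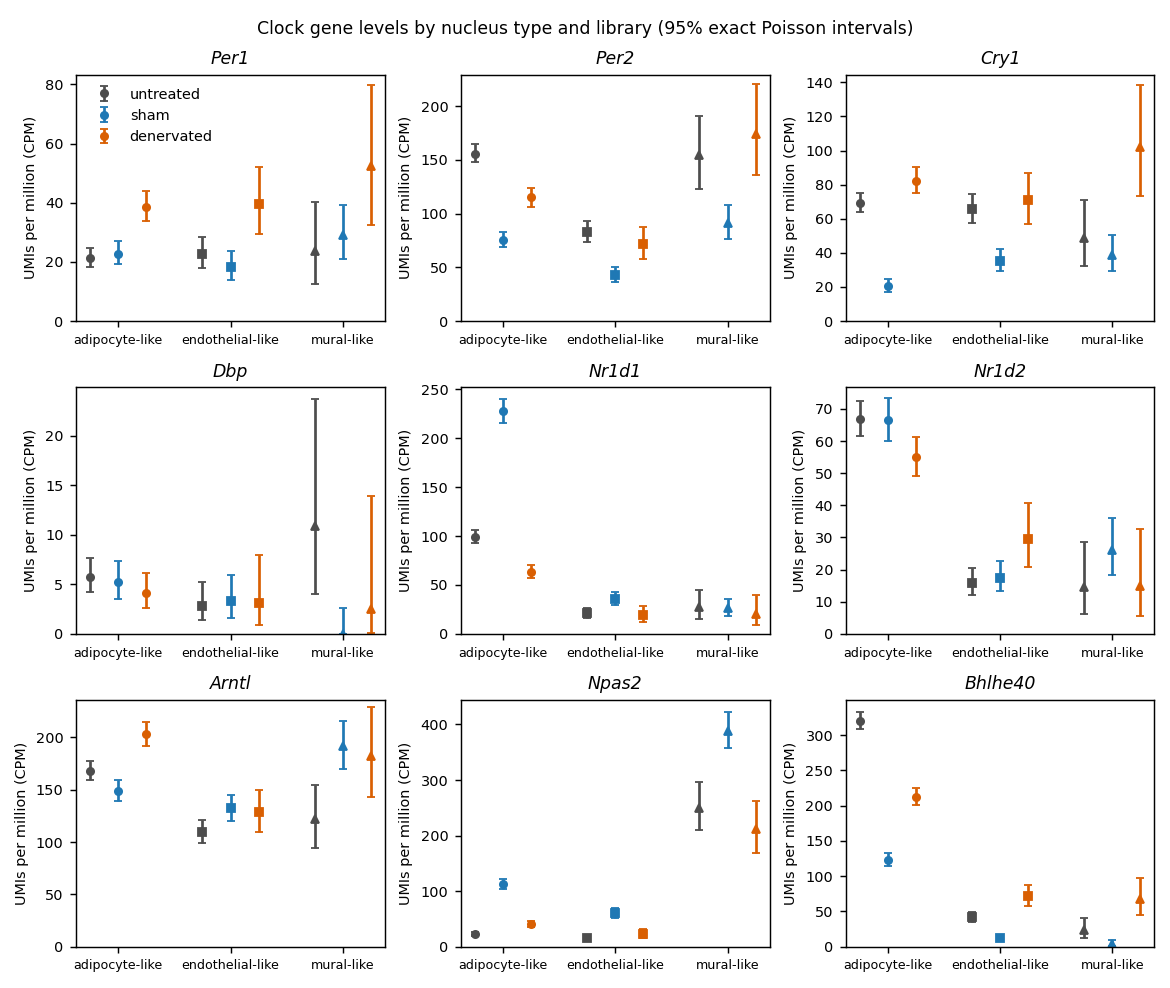
Levels of 9 clock genes in CPM, by nucleus type along the x axis, for the untreated (grey), sham (blue) and denervated (orange) library; points are 1 library each and bars are exact 95% Poisson intervals. Npas2 is highest and Per2 lowest in the sham library in all 3 types, while Dbp stays under 11 CPM throughout.

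Set against untreated BAT, 5 of 9 clock genes in sham adipocyte-like nuclei differed 2-fold or more (Npas2 and Nr1d1 higher, Per2, Cry1 and Bhlhe40 lower), where 18.6% of all 14194 genes tested did so. In endothelial-like nuclei 2 of 9 did (Npas2 and Bhlhe40, the latter at the level of stray adipocyte RNA there), against 9.4% of all genes. Both did so in 1 direction in these 2 types, against 3.41% of the 11699 genes tested in both. A gene counted as tested with at least 20 UMIs in the 2 libraries together. A wider reading takes genes whose 95% counting interval excluded 0, which held for 6 of 9 clock genes in each type, against 56.8% of all genes in adipocyte-like and 39.5% in endothelial-like nuclei. By it 5 of 9 clock genes (Per2, Cry1, Nr1d1, Npas2 and Bhlhe40) had 1 sign in both types, against 22.2% of all genes, and 1 (Arntl) had opposite signs, against 5.71%. Counting intervals narrow as the UMIs of a gene rise. The shares of all genes by counting intervals, here and in the comparisons below, were not matched for UMIs. A count of clock genes above such a share can thus come from their UMIs alone. Per1, Per2, Cry1 and Arntl were the 4 genes whose endothelial-like level stood, with its interval, above that of every adipocyte marker in each library, a limit set after the values were seen. Of these 4, 2 (Per2 and Cry1) had 1 sign and 1 (Arntl) opposite signs. Past 1.5-fold lay 39.7% of all genes in adipocyte-like and 27.3% in endothelial-like nuclei for sham over untreated, 28.8% and 34.2% for denervated over untreated, and 45.8% and 42.4% for denervated over sham.

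Mural-like nuclei had none of 7 tested clock genes past 2-fold in sham over untreated, against 10.4% of all genes. By counting intervals 3 of 7 differed there, against 20.7%. Npas2 (0.64, from 0.36 to 0.92) and Per2 (-0.76, from -1.16 to -0.35) had the sign of adipocyte-like nuclei, against 11.6% of all genes, and Arntl (0.66, from 0.27 to 1.07) the opposite sign, against 3.38%. The sham mural-like nuclei were 2 clusters, scored as pericyte (1373 nuclei) and smooth muscle (456 nuclei), and the untreated ones 1 cluster. Npas2 spanned 245 to 429 CPM over the sham clusters, beside 250 CPM in the untreated one. Per2 spanned 79.5 to 134 CPM, beside 154 CPM.

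In denervated over untreated, none of 9 clock genes in adipocyte-like nuclei and none of 8 in endothelial-like nuclei differed 2-fold, against 12.1% and 15.2% of all genes, and none did in both types, against 2.6%. The endothelial-like count was 3 of 8 among nuclei with at least 800 UMIs (Per1, Nr1d2 and Bhlhe40), where 30.7% of all genes passed. By counting intervals 8 of 9 differed in adipocyte-like nuclei, against 46.8% of all genes, and 3 of 8 in endothelial-like nuclei, against 37.1%. Per1 alone differed with 1 sign in both types, against 17.4% of all genes, and Nr1d2 and Bhlhe40 differed with opposite signs, against 5.89%, both of them genes not separate from stray adipocyte RNA in endothelial-like nuclei. Of the 4 genes above every adipocyte marker 1 (Per1) had 1 sign and none opposite signs. In adipocyte-like nuclei Per1, Cry1, Arntl and Npas2 were higher and Per2, Nr1d1, Nr1d2 and Bhlhe40 lower, with log2 ratios from -0.64 for Nr1d1 to 0.86 for Per1. In mural-like nuclei 3 of 7 genes were higher by 2-fold (Per1, Cry1 and Bhlhe40, the latter within the range of adipocyte markers there), against 13.7% of all genes. With Arntl, 4 of 7 differed there by counting intervals, against 22.4%. Of these Per1, Cry1 and Arntl had the sign of adipocyte-like nuclei, against 11.7% of all genes, and Bhlhe40 the opposite sign, against 3.03%.

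Between the operated libraries, 3 of 9 clock genes differed 2-fold in adipocyte-like nuclei, against 24.0% of all genes, and 3 of 8 in endothelial-like nuclei, against 21.5%. In adipocyte-like nuclei, denervated over sham gave log2 ratios of 2.01 (1.72 to 2.31) for Cry1, -1.84 (-2.01 to -1.68) for Nr1d1 and -1.49 (-1.72 to -1.28) for Npas2. With the brown-scored clusters alone Npas2 gave -3.47, at 10.4 CPM against 115 CPM. In endothelial-like nuclei the 3 genes were Npas2 at -1.43 (-2.04 to -0.86), Per1 at 1.11 (0.55 to 1.67) and Bhlhe40 at 2.50 (1.96 to 3.07). Bhlhe40 was not separate from stray adipocyte RNA there. Of the 4 genes above every adipocyte marker 1 (Per1) passed. Its endothelial-like ratio ran from 0.77 to 1.34 under the alternatives. It did not pass 2-fold with libraries clustered together or with CPM over non-mitochondrial UMIs, among others. Npas2 alone passed in both types, where 6.87% of all genes passed in 1 direction. Cry1 fell just short in endothelial-like nuclei, at 0.997 (0.59 to 1.40). It passed there with libraries clustered together and with the mean CPM over nuclei, among others. By counting intervals 8 of 9 differed in adipocyte-like nuclei, against 60.8% of all genes, and 7 of 8 in endothelial-like nuclei, against 44.1%. With 1 sign in both types there were 6 of 8, Bhlhe40 and Nr1d1 among them, against 26.7%, and Nr1d2 had opposite signs, against 6.27%. Of those 4 genes 3 had 1 sign and none opposite signs. In mural-like nuclei 2 of 8 passed 2-fold (Cry1 and Bhlhe40, with the same limit on Bhlhe40), against 21.4%. By counting intervals 5 of 8 differed there, against 30% of all genes, all with the sign of adipocyte-like nuclei, against 18.3% with 1 sign and 4.6% with opposite signs among all genes. These 3 comparisons share libraries, so their values stand side by side and are not independent. The median log2 ratio over all genes tested lay between -0.05 and 0.13 in adipocyte-like and endothelial-like nuclei.

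**Figure D2:**
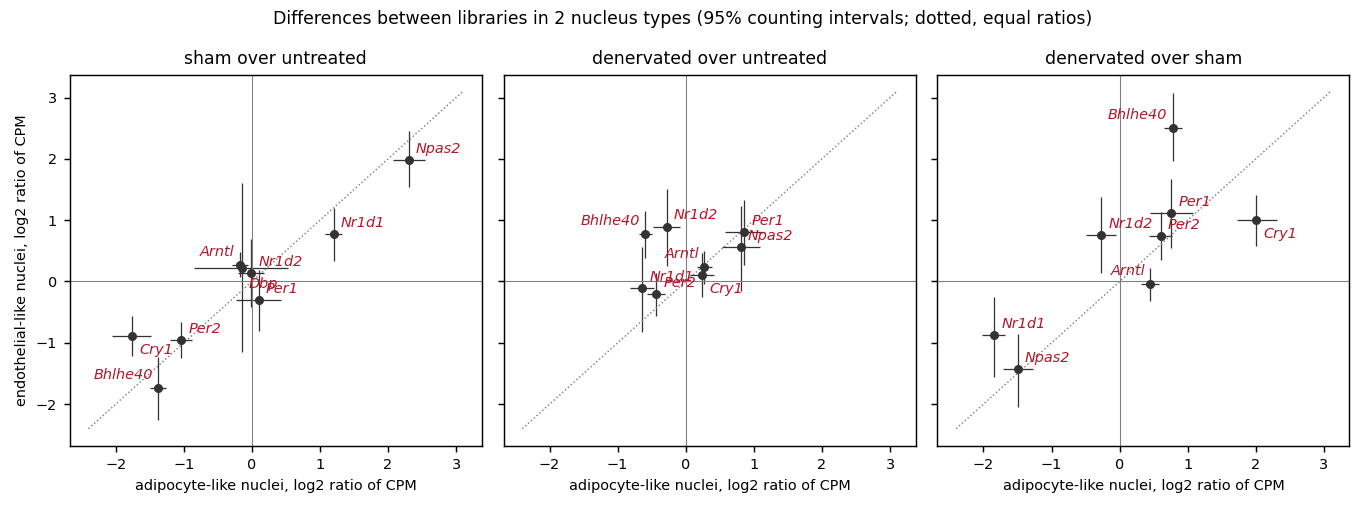
Log2 ratios of CPM between libraries in adipocyte-like (x axis) and endothelial-like nuclei (y axis) for the clock genes tested in both; bars are 95% counting intervals and the dotted line marks equal ratios. In sham over untreated Npas2, Nr1d1, Per2, Cry1 and Bhlhe40 lie in the same-sign quadrants beyond their bars, whereas in denervated over untreated all genes lie within 1 log2 unit of 0.

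RNA set free from adipocytes can reach the wells of other nuclei, and its share differed between libraries. The 10 brown adipocyte markers had a median level in endothelial-like nuclei of 16.7% of their adipocyte-like level in the untreated, 10.7% in the sham and 36.6% in the denervated library, with the highest marker at 31.7%, 46.2% and 47.0%. Ucp1 stood at 28.0%, 21.9% and 60.4%. Bhlhe40 in endothelial-like nuclei was 13.1% (11.0 to 15.5), 10.2% (7.31 to 14.0) and 33.7% (27.0 to 41.7) of its adipocyte-like level, under the marker median in every library, although the upper bounds passed that median in the sham and denervated library. Its endothelial-like level is thus not separate from stray adipocyte RNA, and its ratios there are taken as no result on endothelial cells. Over untreated endothelial-like clusters Bhlhe40 spanned 8.38 to 94.1 CPM and Ucp1 92.0 to 107 CPM. The source of this RNA was not tested. Nr1d1 at 21.2%, 15.7% and 30.6%, and Nr1d2 at 23.8%, 26.2% and 53.7%, were not separate from the range of the markers. Nr1d1 in the denervated library was under their median.

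Per1, Per2, Cry1 and Arntl were above the highest marker, with their intervals, in all 3 libraries. Ucp1 in the denervated library, at 60.4%, lay within the intervals of Per2 (49.5 to 77.5) and Arntl (53.4 to 74.5) there. Cry1 in endothelial-like nuclei was 94.45% (80.8 to 110.2), 173% (133 to 225) and 86.0% (67.9 to 108) of its adipocyte-like level. Per2 was 53.0%, 56.3% and 62.2% of it, and Npas2 66.9% (48.6 to 90.9), 53.7% (45.7 to 62.9) and 56.2% (36.8 to 82.9). The Npas2 intervals of the sham and denervated library reached under the highest marker (46.2% and 47.0%), and its denervated level, from 29 UMIs, was under that of Ucp1. In the sham library this marker was Acsl5, with the next, Pparg, at 37.9%. Acsl5 itself had 504 CPM in untreated and 85.2 CPM in sham adipocyte-like nuclei. When adipocyte RNA at the marker median was taken off, a step added after the data were seen, sham over untreated in endothelial-like nuclei was -0.80 for Per2, -0.79 for Cry1 and 1.99 for Npas2, against -0.95, -0.89 and 1.99 before. For Nr1d1 the same step gave 1.25 in place of 0.77. For denervated over untreated it turned Npas2 from 0.56 to -0.16 and Arntl from 0.23 to -0.20, both with intervals that held 0 before the step, while Per1 stayed at 0.80. In mural-like nuclei Bhlhe40 was 7.36%, 3.44% and 31.7% of its adipocyte-like level, beside marker medians of 10.8%, 4.33% and 26.4%.

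**Figure D3:**
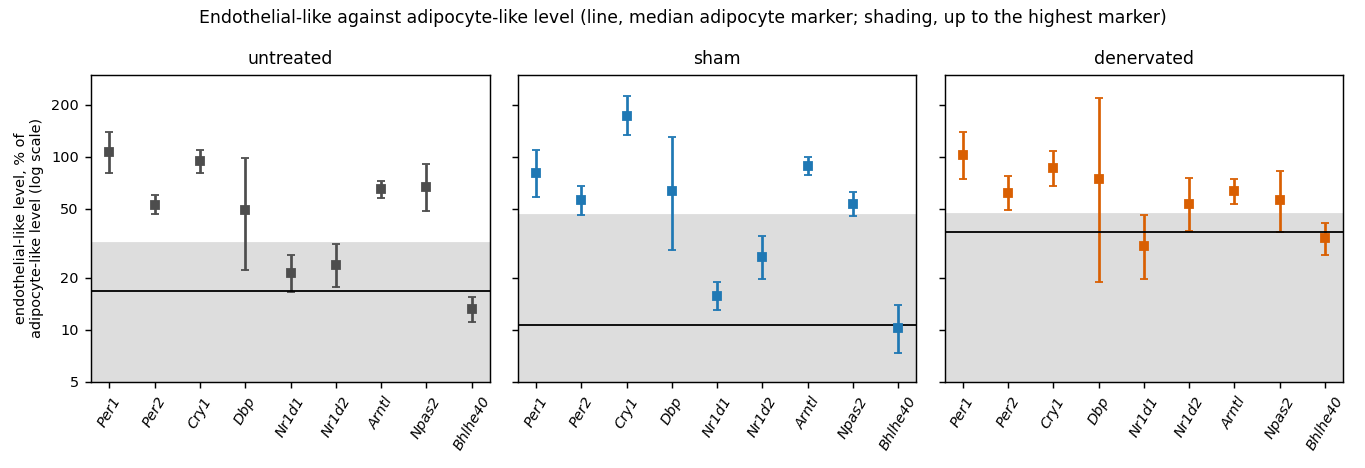
Level of each clock gene in endothelial-like nuclei as a percent of its level in adipocyte-like nuclei of the same library, on a log axis with 95% counting intervals; the line is the median of 10 adipocyte markers and the shading reaches to the highest marker. Bhlhe40 lies under the line in each library, and Per1 and Cry1 lie above the shading in each.

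The balance of the arms was taken as the log2 ratio of the summed UMIs of Dbp, Nr1d1, Nr1d2, Per1 and Per2 over those of Arntl and Npas2, which needs no scaling between libraries. In adipocyte-like nuclei it was 0.87 (0.78 to 0.96) in the untreated, 0.60 (0.51 to 0.70) in the sham and 0.18 (0.08 to 0.29) in the denervated library. In endothelial-like nuclei it was 0.22 (0.03 to 0.41), -0.72 (-0.90 to -0.53) and 0.11 (-0.17 to 0.40), and in mural-like nuclei -0.69, -1.75 and -0.58. The endothelial-like sums include Nr1d1 and Nr1d2, whose levels there were not separate from the range of the adipocyte markers. With all clusters kept, the order of libraries by the summed arms was not the same, with denervated the lowest in adipocyte-like nuclei and sham the lowest in the other types. The change from sham to denervated was -0.42 (-0.56 to -0.28) in adipocyte-like and 0.83 (0.49 to 1.17) in endothelial-like nuclei. The adipocyte-like value turned to 0.19 when only the brown-scored clusters were kept. With these clusters alone the sham library was the lowest in adipocyte-like nuclei too, so the difference in order depends on the clusters kept.

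Nr1d1 over Arntl in adipocyte-like nuclei was -0.76 (-0.89 to -0.64) in the untreated, 0.61 (0.49 to 0.74) in the sham and -1.68 (-1.85 to -1.51) in the denervated library, and in endothelial-like nuclei -2.38, -1.89 and -2.72. For this pair the sham library was the highest in both types, although Nr1d1 is a gene whose endothelial-like level lay within the range of the adipocyte markers. In mural-like nuclei it was -2.16 (-3.07 to -1.34), -2.87 (-3.41 to -2.37) and -3.19 (-4.46 to -2.14), with overlapping intervals and the untreated library highest. For 3 more pairs, picked after the values were seen (Npas2 over Per2, Npas2 over Cry1 and Nr1d1 over Per2), the sham library was highest in all 3 types, an order that the choice of these genes fixes and that is no result. Dbp over Arntl rested on at most 49 Dbp UMIs and overlapped between untreated and sham in both types. With 1 time point per library no phase was computed.

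**Figure D4:**
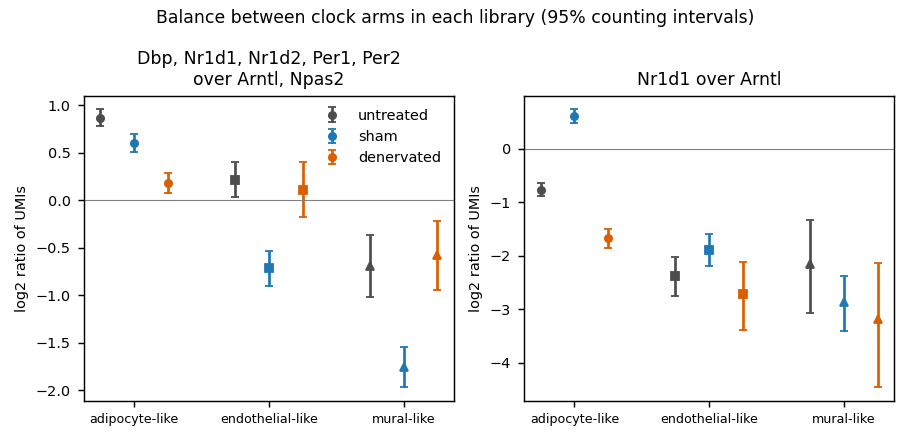
Log2 ratios of UMIs between clock genes of opposite arms, by nucleus type, for the untreated (grey), sham (blue) and denervated (orange) library, with 95% counting intervals. With all clusters kept, the sham library is lowest for the summed arms in endothelial-like and mural-like but not in adipocyte-like nuclei. For Nr1d1 over Arntl it is highest in adipocyte-like and endothelial-like but not in mural-like nuclei.

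Clock genes also varied among adipocyte-like clusters of 1 library, of which 8 with at least 50 nuclei are described. In the denervated library Npas2 had 8.71 CPM (6.06 to 12.1) in the main cluster of 3576 nuclei and 18.2 CPM (10.4 to 29.5) in a cluster of 1239 nuclei led by genes that include Cyr61 and Hspa1a. It had 214 CPM (184 to 248) in a cluster of 976 nuclei led by Ptx3, Slc7a10, Cxcl1 and Trhde, where Slc7a10 is a white adipocyte marker. This cluster was 16.8% of the adipocyte-like nuclei and held 78.02% of their Npas2 UMIs. The higher Npas2 of the denervated library over the untreated one (0.81, from 0.53 to 1.09) rested on it. With the brown-scored clusters alone the log2 ratio was -0.59, at 10.4 CPM against 15.7 CPM. The same cluster had the highest Per1 (97.0 CPM, 77.2 to 120.4) and Per2 (224 CPM, 193 to 258) of the denervated adipocyte-like clusters and the lowest Nr1d2 (21.3 CPM, 12.6 to 33.7).

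In the untreated library Npas2 was likewise low in the main cluster (15.7 CPM, 13.03 to 18.8) and higher in a cluster of 793 nuclei led by Hspa1a, Dnajb1, Hspa1b and Slc7a10 (77.8 CPM, 61.4 to 97.3). In the sham library it had overlapping intervals over all 3 clusters, between 104 and 115 CPM. So had Cry1, between 19.5 and 20.9 CPM, and Per2, between 69.4 and 77.6 CPM. All 3 sham clusters were under all untreated and denervated clusters for Cry1 and Per2. Nr1d1 was not level, with 151 CPM (139 to 164) in the largest sham cluster, 281 CPM (252 to 312) in one led by Nnat, Pdk4, Jun and Rasd1, and 439 CPM (399 to 481) in one whose leading genes include Mt2, Thbs1 and Dnajb1. Endothelial-like clusters of 1 library varied too. In the untreated library Arntl spanned 58.2 to 183 CPM and Per2 36.0 to 122 CPM, while Cry1 spanned 62.4 to 76.1 CPM. In the sham library Arntl spanned 74.4 to 170 CPM. A cluster led by Aqp1 held 2906 of 5004 untreated but 1430 of 5432 sham endothelial-like nuclei. The part of this mix in the endothelial-like ratios was not tested.

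**Figure D5:**
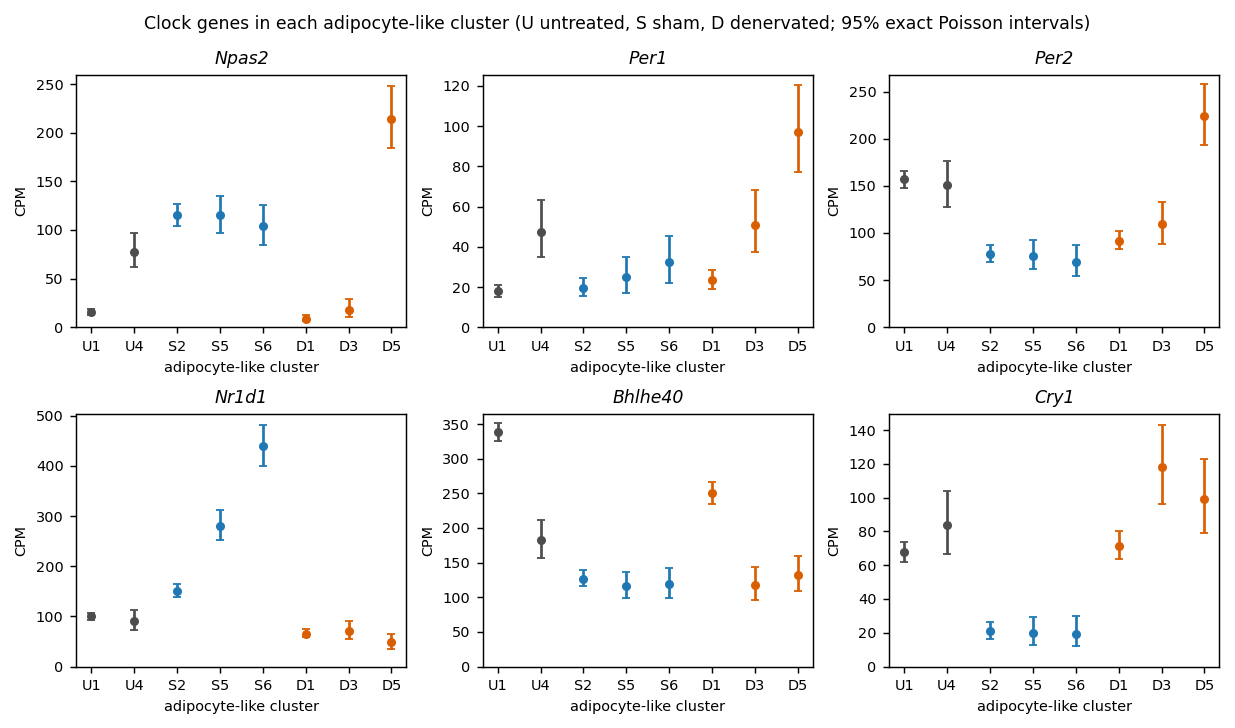
CPM of 6 clock genes in each adipocyte-like cluster with at least 50 nuclei, with exact 95% Poisson intervals; U, S and D give the untreated, sham and denervated library and the digit is the cluster number. Cry1 and Per2 are lowest in the 3 sham clusters, and Npas2 of the denervated library is high in cluster D5 alone.

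Other genes of the clock pathway were taken from a list of 22. In sham over untreated, 5 of 22 tested in adipocyte-like and 5 of 20 tested in endothelial-like nuclei were lower by 2-fold or more and none was higher, beside the 18.6% and 9.4% of all genes in either direction. Of 20 tested in both types 17 had 1 sign, against 63.6% of all genes, and in denervated over untreated 9 did, against 62.0%, and in denervated over sham 15, against 66.5%. Of the clock genes themselves 5 of 9, 6 of 8 and 6 of 8 had 1 sign in these comparisons, counting intervals aside. Tef and Hlf, which encode PAR bZIP factors like Dbp, gave -1.19 (-1.30 to -1.07) and -0.60 (-0.88 to -0.33) in adipocyte-like and -1.46 (-1.78 to -1.15) and -2.28 (-3.69 to -1.09) in endothelial-like nuclei. Bhlhe41, which encodes DEC2, the paralogue of DEC1, had 36.9 CPM in untreated and 5.03 CPM in sham adipocyte-like nuclei, a log2 ratio of -2.87 (-3.47 to -2.33). Usp2, a deubiquitinase gene and clock output, gave -1.10 and -1.19, and Wee1, a cell cycle kinase gene under clock control, -1.03 and -1.08. Tef, Usp2 and Wee1 were among those past 2-fold in both types. Usp2 in endothelial-like nuclei had 8.24 CPM in the untreated and 3.61 CPM in the sham library. These were 11.3% and 10.6% of its adipocyte-like level, under the marker medians of 16.7% and 10.7%. Usp2 is thus not separate from stray adipocyte RNA there. Hlf stood at 24.4% in the untreated library and under the marker median in the sham library, and Tef at 31.5% and 26.1%. Wee1 was above its adipocyte-like level, at 137% and 132%.

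In denervated over untreated, Bhlhe41 was the 1 of 22 past 2-fold in adipocyte-like nuclei, at -1.23 (-1.58 to -0.89), where 12.1% of all genes passed. In endothelial-like nuclei 3 of 20 were higher past it, against 15.2% of all genes in either direction, among them Usp2 (1.88) and Nfil3 (1.12), a repressor that binds D-boxes. In denervated over sham, where 24.0% and 21.5% of all genes passed in these types, 3 of 21 in adipocyte-like nuclei were higher past it (Bhlhe41 at 1.65, Tef at 1.05 and Usp2 at 1.03), and 7 of 20 in endothelial-like nuclei, among them Usp2 at 3.07 (2.11 to 4.14), Hlf at 2.47 (1.09 to 4.01) and Tef at 1.93 (1.57 to 2.28). The endothelial-like counts of the denervated library stand beside its 36.6% share of adipocyte marker RNA, against which Hlf stood at 26.8%, Usp2 at 43.5%, Nfil3 at 46.1% and Tef at 48.1% of their adipocyte-like levels. Clock itself, the partner of Arntl and named here with its values known, differed little, with 198, 219 and 214 CPM in untreated, sham and denervated adipocyte-like nuclei.

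Genes of acute responses also differed in the sham library. Of 8 immediate early genes, which are induced within minutes of a stimulus, 8 were higher by 2-fold or more in sham over untreated adipocyte-like nuclei, with a median log2 ratio of 1.86, against 1 of 8 in endothelial-like nuclei, with a median of 0.22. Of all genes 18.6% and 9.4% passed 2-fold there in either direction. All 5 heat shock genes passed it in adipocyte-like and 3 of 5 in endothelial-like nuclei. Of 6 genes that respond to glucocorticoids, themselves a daily signal to peripheral clocks, 3 in adipocyte-like and 1 in endothelial-like nuclei were higher by 2-fold. In denervated over untreated, 4 of 8 immediate early genes, 1 of 5 heat shock genes and 2 of 6 glucocorticoid-responsive genes were higher by 2-fold in each of these types, beside 12.1% and 15.2% of all genes. The glucocorticoid-responsive genes were Zbtb16 and Errfi1 in adipocyte-like and Zbtb16 and Pdk4 in endothelial-like nuclei. In denervated endothelial-like nuclei the latter pair lay within the range of the adipocyte markers. Zbtb16 was at 29.6% of its adipocyte-like level, under the marker median, and Pdk4 at 41.4%. Zbtb16, of the glucocorticoid list, stood at 64.5, 610.2 and 208 CPM in untreated, sham and denervated adipocyte-like nuclei and 23.6, 360.5 and 61.5 CPM in endothelial-like nuclei. Sgk1 and Tsc22d3 of that list went the other way from untreated to sham. They fell from 17.2 to 9.56 CPM and from 82.4 to 69.3 CPM in adipocyte-like nuclei. In endothelial-like nuclei they fell from 233 to 168 CPM and from 59.4 to 54.1 CPM. Among 6 sympathetic and cAMP-responsive genes, 1 (Nr4a3) was higher by 2-fold in sham over untreated adipocyte-like nuclei and none of 4 tested in endothelial-like nuclei. In denervated over untreated 1 of 6 (Nr4a3) was higher and 1 (Elovl3) lower in adipocyte-like nuclei. There 2 of 4 (Ppargc1a and Pde4d) were higher in endothelial-like and 3 of 4 (Ucp1, Ppargc1a and Nr4a3) in mural-like nuclei. Of all genes 12.1%, 15.2% and 13.7% passed 2-fold in these 3 types in either direction. In denervated endothelial-like nuclei Ppargc1a and Pde4d stood at 33.4% and 33.7% of their adipocyte-like levels, under the marker median of 36.6%. Both are thus not separate from stray adipocyte RNA there. In denervated mural-like nuclei Ppargc1a stood at 25.8% and Ucp1 at 27.9%, beside a median of 26.4%. Mitochondrial genes took 6.71% of all UMIs in the untreated, 12.9% in the sham and 2.95% in the denervated library. The part of these responses and of library quality in the clock gene values was not tested.

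Profiles over the 3 types and 3 libraries, centred within each type, were set beside those of Dbp and Arntl as a description. Over these 9 profiles, the genes most like Arntl were Stx1a (r = 0.98), Sart1 (0.97), Rps6 (0.97), Rasa4 (0.96) and Gbp8 (0.94). Those most like Dbp were Klhl26 (0.97), Glyr1 (0.97), Dopey1 (0.95), Cul4a (0.95) and Adcyap1r1 (0.95), where the Dbp profile rests on 0 to 49 UMIs a point. The points share libraries and depth, and no other clock gene was among these 10 genes.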

How the data were processed

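UMI counts per nucleus and gene were used as the authors deposited them, without normalization. Per the file headers of the untreated and denervated tables, a BD Rhapsody pipeline made the counts with GRCm38 and GENCODE vM19. The sham table has no header. The submitters' processing notes list Seurat 4.0.6 and a human build, which the headers contradict. The headers name runs with the tokens nC (untreated) and nKO (denervated), and the groups were taken from the labels. The debris and ambient RNA steps in the methods of the study were not applied.

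A barcode was kept if it had 200 or more detected genes and no more than 50% of UMIs from mitochondrial genes, which left 11792, 14027 and 10462 in the untreated, sham and denervated library. Doublets (1340, 2186 and 903) were taken as nuclei in which marker lists of 2 lineages each reached 3 UMIs, with the lesser list at 25% or more of the greater, and were left out. Median UMIs per kept nucleus were 986, 745 and 689. Each library was clustered alone (2000 variable genes without clock genes, 30 components, 20 neighbours, Louvain resolution 0.5). A cluster was named by its best marker list, with at least 3 markers of at least 3 UMIs and a CPM at least 2-fold over the lower quartile of clusters. This rule, and the joining of brown with white adipocyte and of pericyte with smooth muscle clusters, was set after the clusters were seen, so values may differ from the study because the names were rebuilt.

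UMIs were summed per type and library. Log2 ratios have exact conditional binomial 95% intervals, and differences of ratios MOVER intervals. The functions were tested on simulated counts. Alternatives changed the filters, clustering, classes, ambient RNA, scaling and limits. Named genes were all members, up to 5 pathway genes per comparison and type with the largest ratio in size among those with at least 20 UMIs, and the 5 genes most like Dbp and Arntl in log2(CPM + 10) among genes of at least 50 CPM. Some genes that these rules name are not reported here. Each condition has 1 library, so no replicate spread could be measured. The members and lists were chosen with earlier results of these data known. Gene positions are from GENCODE vM21 on GRCm38. Promoter windows were matched by symbol for 7 of 9 members in RefSeq, those of Per2 and Bhlhe40 being the others. Software was Python 3.11.15 (scipy 1.17.1, numpy 2.4.6, python-igraph 0.11.9, scikit-learn 1.9.0, matplotlib 3.10.9, pandas 2.3.3).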

Additional observations from a re-analysis of the deposited data

Results flagged for a closer look

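For 4 comparisons the 95% counting intervals of the log2 ratio lay on opposite sides of 0 in adipocyte-like and endothelial-like nuclei. With 1 library per condition, none of these differences was tested against replicates. Denervated over untreated differed between the types for Nr1d2, at -0.28 in adipocyte-like and 0.89 in endothelial-like nuclei, a difference of -1.18 (-1.83 to -0.51). Its endothelial-like level was 53.7% of the adipocyte-like level in the denervated library, under that of Ucp1 (60.4%), and was not separate from adipocyte RNA. The same comparison gave -0.59 and 0.77 for Bhlhe40, a difference of -1.36 (-1.76 to -0.96), where the endothelial-like level lay under the share of adipocyte marker RNA. Sham over untreated gave -0.18 and 0.27 for Arntl, a difference of -0.45 (-0.69 to -0.22). Over endothelial-like clusters Arntl spanned 58.2 to 183 CPM in the untreated and 74.4 to 170 CPM in the sham library. The part of the mix of clusters was not tested. Denervated over sham gave -0.27 and 0.76 for Nr1d2, a difference of -1.03 (-1.69 to -0.37), with the same limit.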

How the results depend on the processing

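Among the log2 ratios of single genes, 607 of the values under alternatives stayed within the counting interval of the reported value, 63 moved outside it and 3, whose reported interval excluded 0, turned their sign. In sham over untreated, Npas2 (2.16 to 2.87 and 1.72 to 2.68), Per2 (-1.11 to -0.98 and -1.01 to -0.74) and Cry1 (-1.80 to -1.69 and -1.10 to -0.79) kept their direction in adipocyte-like and endothelial-like nuclei under each alternative run. The cause of the changes below was not tested. Turned were Npas2 in denervated over untreated adipocyte-like nuclei (-0.59) and Nr1d2 in denervated over sham adipocyte-like nuclei (0.0032), both with brown-scored clusters alone, and Bhlhe40 in denervated over untreated endothelial-like nuclei with clock genes kept in the clustering (-0.19). Npas2 in denervated over sham adipocyte-like nuclei went from -1.49 to -3.47 with brown-scored clusters alone.

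The arm balance of denervated over untreated endothelial-like nuclei moved from -0.10 to 0.37 with at least 800 UMIs. That of sham over untreated moved in adipocyte-like nuclei from -0.26 to -0.77 with brown-scored clusters alone and to -0.13 with the mean CPM over nuclei, and in endothelial-like nuclei from -0.93 to -1.45 with at most 10% mitochondrial UMIs. That of denervated over sham turned in adipocyte-like nuclei from -0.42 to 0.19 with brown-scored clusters alone and was -0.59 with the mean CPM over nuclei, and in endothelial-like nuclei it moved from 0.83 to 1.28 with at least 500 detected genes, to 1.44 with at least 800 UMIs and to 1.23 after subtraction of adipocyte RNA.

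At a 1.5-fold limit the counts of members were 4 and 3 for denervated over untreated (adipocyte-like and endothelial-like, 0 and 0 at 2-fold), against 28.8% and 34.2% of all genes. They were 5 for sham over untreated in endothelial-like nuclei (2 at 2-fold), against 27.3%, and 6 and 7 for denervated over sham (3 and 3 at 2-fold), against 45.8% and 42.4%. For denervated over untreated the 2-fold count was 2 in adipocyte-like nuclei without clusters led by immediate early or heat shock genes (12.1% of all genes under the same setting) and 1 with the mean CPM over nuclei (13.1%). In endothelial-like nuclei it was 2 with at least 500 detected genes (27.0%), 3 with at least 800 UMIs (30.7%) and 1 after subtraction of adipocyte RNA (15.6%). For denervated over sham in endothelial-like nuclei it was 5 with the mean CPM over nuclei (20.4%). For sham over untreated in adipocyte-like nuclei the 2-fold count of 5 fell to 4 under some alternatives. Per2 did not pass with at least 800 UMIs (18.6%), CPM over non-mitochondrial UMIs (18.4%) or median-ratio scaling (18.5%). Nr1d1 did not pass with brown-scored clusters alone (19.7%). Subtraction of the profile of barcodes under 200 genes gave no endothelial-like values, because its share came to 89.5% of the UMIs of sham and 121% of those of denervated endothelial-like nuclei, over a limit of 50%. Subtraction of adipocyte RNA and the brown-scored clusters were chosen after seeing the data. No paired analysis was possible because each condition has 1 library.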
